A study of Sus scrofa with 23 samples.

Results

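The RNA levels of 10 markers of tubular injury and repair, HAVCR1, LCN2, VCAM1, SPP1, CLU, SOX9, KRT7, KRT8, KRT18 and PROM1, were followed in the kidney cortex of newborn pigs. They were chosen by gene symbol as a list of genes known from injured kidneys, and all 10 were found among the 26687 genes measured. Total RNA depleted of ribosomal RNA was sequenced from 23 pigs, each giving 1 library. The labels put 11 pigs in the group CF (CFTR-/-), 6 in HET (CFTR+/-) and 6 in WT (CFTR+/+), and the study's comparison group, non-CF, holds the 12 HET and WT pigs. CFTR encodes the anion channel that is lost in cystic fibrosis, and a CF pig carries the disrupted gene in every cell of the body, not in the tubule alone. All pigs were newborn, none is labelled with an injury or a treatment, and neither sex nor litter is given in the labels. Animals are named below by label and number, such as CF9.

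In an injured kidney, tubule cells lose part of their mature functions, shed or flatten, and switch on a characteristic set of genes before they either recover or remain in an incompletely repaired state. HAVCR1 (KIM-1, a phagocytic receptor) and LCN2 (NGAL, a secreted protein that binds iron carriers) are the classical early markers of that response. VCAM1 (an adhesion molecule), SPP1 (osteopontin, a secreted phosphoprotein) and CLU (clusterin, a secreted chaperone) accompany inflammation and incomplete repair, SOX9 is a transcription factor of regenerating epithelium, KRT7, KRT8 and KRT18 are keratins of simple epithelia, and PROM1 (CD133) is a membrane protein of scattered tubular and progenitor-like cells. In the newborn kidney several of them are also made by healthy cells: SPP1 by the distal nephron, keratins by collecting duct and CLU and SOX9 during growth of the organ.

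Levels between genes were compared per transcript length, as TPM (an abundance corrected for transcript length and library size). HAVCR1 was the lowest of the 10, at 0.604 ± 0.131 TPM (SD, n = 23), and rested on 74 to 149 counts per library. SOX9 followed at 1.66 ± 0.621 TPM. PROM1 at 8.35 ± 1.75 TPM and LCN2 at 8.47 ± 3.01 TPM lay within each other's spread, as did VCAM1 at 13.7 ± 7.90 TPM and KRT18 at 19.7 ± 6.40 TPM. KRT7 had 33.6 ± 9.16 TPM, CLU 77.6 ± 29.6 TPM and KRT8 87.0 ± 16.6 TPM, and the last 2 differed by less than their spread. SPP1 was the highest, at 808 ± 671 TPM, which ranked 52 among the 25518 genes with a TPM value. HAVCR1 thus exceeded 29.3% of the genes with a TPM value, and SPP1 99.8%.

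The markers also differed in how far pigs varied. For comparisons within a gene the values are CPM, counts scaled to library size with the TMM factor. Between the highest and the lowest pig, HAVCR1 differed by 1.79-fold and PROM1 by 1.81-fold, SPP1 by 10.1-fold and VCAM1 by 7.17-fold, against a median of 2.01-fold over all 20921 genes tested. The SD of log2 CPM was higher for SPP1 than for 98.3% of those genes, for VCAM1 than for 93.7% and for HAVCR1 than for 30.9%. The plot of levels shows the 23 pigs for each marker.

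**Figure D1:**
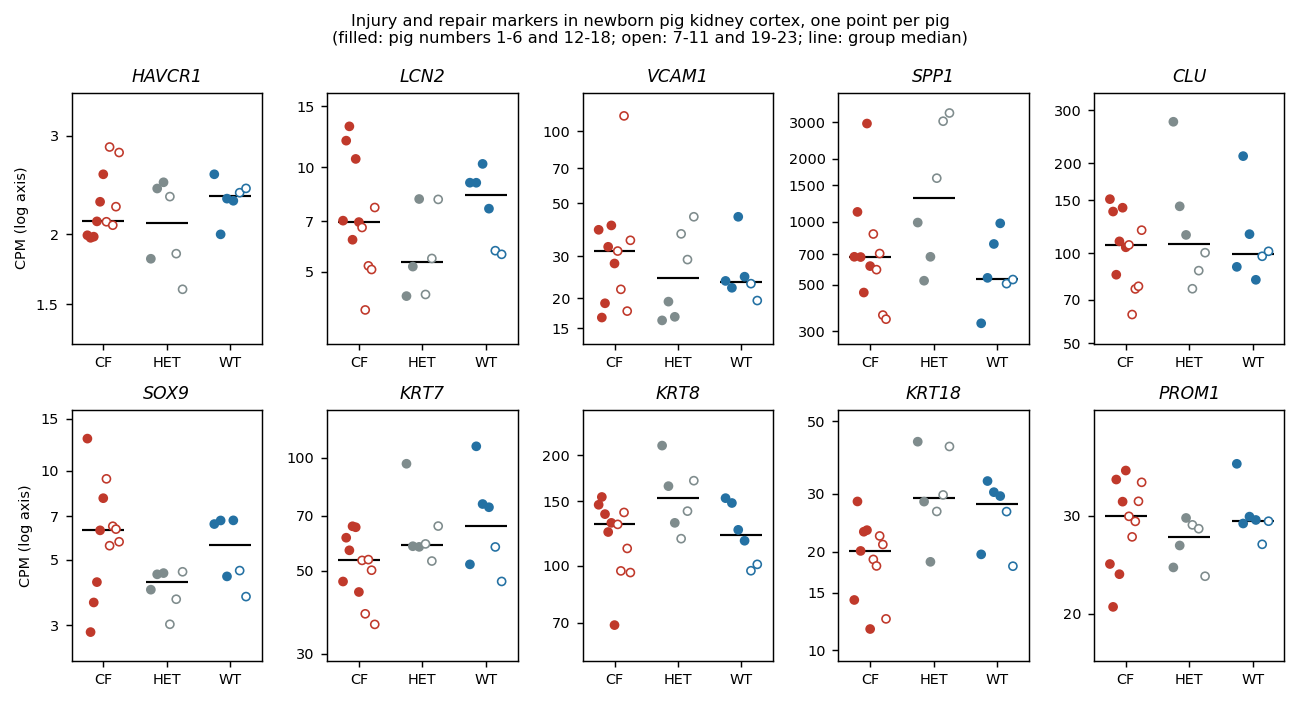
CPM of each of the 10 markers on a log axis, in 11 CF, 6 HET and 6 WT pigs, with 1 point per pig and a line at the group median; filled points are pigs numbered 1 to 6 and 12 to 18, open points 7 to 11 and 19 to 23. The genotype groups overlap for all 10 markers. CF9 stands far above the rest for VCAM1, HET13 and WT16 are the highest for CLU, and 4 pigs (CF5, HET19, HET20, HET21) stand above the others for SPP1.

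A few facts on the whole set of libraries bear on what follows. Each library held 32901194 to 52952229 estimated counts. CFTR RNA itself was lowest in pigs labelled WT and, by median, highest in those labelled CF. It was 12.5 to 23.5 CPM (median 20.7) in CF, 9.41 to 17.5 CPM (median 12.1) in HET and 1.27 to 3.67 CPM (median 2.24) in WT. This order is the reverse of the number of intact alleles that the labels give, and its cause was not tested. Genotypes are therefore used here only as labelled. CF1 held the most genes (1291) lying over 3.5 robust SDs (the median absolute deviation, scaled to match an SD) from the median of all pigs, and WT12 the next most (447). The summed immediate early genes stood at 1048 TPM in CF1 and 473 TPM in WT12, against 94.1 to 201 TPM elsewhere, and the summed erythroid markers at 1042 TPM in CF1. Markers of proximal tubule summed to 1777 to 3586 TPM per library, with all 10 detected in every library, and the 2 inner medulla markers to at most 0.546 TPM. Since earlier results of these data showed a split along the pig numbers, values are also given for pigs 1 to 6 and 12 to 18 (13 pigs) and for pigs 7 to 11 and 19 to 23 (10 pigs). The labels do not call these sets batches.

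The first question was whether CF kidneys carried more or less of these RNAs than non-CF kidneys. None of the 10 markers passed an adjusted p of 0.05 in edgeR's quasi-likelihood test of 11 CF against 12 non-CF pigs, where 0.349% of the 20921 genes tested did. At an unadjusted p under 0.05 there were 3 markers, KRT18 and KRT7 lower and SOX9 higher in CF, beside 13.7% of all genes. The median log2 fold change of the markers was -0.08, with 5 above and 5 below 0. In whole tissue, a smaller number of cells of a type and less RNA per cell cannot be told apart.

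KRT18 and KRT7 gave the largest differences relative to their error. Keratins 8 and 18 pair to form the filaments of simple epithelial cells, and keratin 7 is typical of ducts. KRT18 had a lowest, median and highest level of 11.6, 20.1 and 28.5 CPM in CF, 18.6, 29.1 and 43.3 CPM in HET, and 18.1, 28.0 and 32.8 CPM in WT. All 11 CF pigs lay below the non-CF median of 29.0 CPM, although the ranges overlapped. The log2 fold change was -0.57 (SE 0.155, 95% interval -0.89 to -0.25), with an edgeR adjusted p of 0.0869. That value lay just outside the threshold in edgeR, and DESeq2 put it inside, with an adjusted p of 0.0240, in a test that called 2.33% of genes. With 1 pig left out at a time the edgeR adjusted p of KRT18 ran from 0.0528 to 0.162.

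KRT7 ran from 36.0 over 53.2 to 65.6 CPM (lowest, median, highest) in CF, from 53.0 over 58.5 to 96.3 CPM in HET and from 46.8 over 65.8 to 107 CPM in WT. The highest values were those of WT16 and HET13, and 8 of 11 CF pigs lay below the non-CF median. Its log2 fold change was -0.37 (SE 0.130, edgeR adjusted p 0.190). KRT8 spanned 69.1 to 154 CPM in CF with a median of 129.7, 118.6 to 212 CPM in HET with a median of 153 and 97.1 to 153 CPM in WT with a median of 121. Its log2 fold change of -0.20 (SE 0.128, edgeR adjusted p 0.513) was the smallest of the 3 keratins. Per length, KRT8 exceeded KRT18 in every pig, by 4.38 to 8.51 times in CF (median 4.91), 3.36 to 5.81 times in HET (median 3.98) and 3.02 to 6.44 times in WT (median 3.57), ranges that overlap.

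KRT8 and KRT18 lie on the same chromosome, at chr5:18172423-18180277 on the minus strand and chr5:18217686-18221432 on the plus strand of Sscrofa11.1, with KRT7 at chr5:17553192-17570582 on the plus strand. The RefSeq annotation holds KRT7 only as 1 non-coding transcript, and 6.28% of its 31-base words also occur in transcripts of other genes, 54 of them shared with KRT8, so the split of reads between these 2 genes is partly uncertain. KRT18 shares none. The 300-base windows around the annotated starts of KRT8 (chr5:18180228-18180527, minus strand) and KRT18 (chr5:18217436-18217735, plus strand), from 250 bases before to 50 bases after the start, are shown because these partner genes are the pair whose difference can be set side by side. Capitals mark letters matching TATAAA, TTCNNNGAA (a STAT element) or GGGCGG (an SP1 element) on either strand.
KRT8: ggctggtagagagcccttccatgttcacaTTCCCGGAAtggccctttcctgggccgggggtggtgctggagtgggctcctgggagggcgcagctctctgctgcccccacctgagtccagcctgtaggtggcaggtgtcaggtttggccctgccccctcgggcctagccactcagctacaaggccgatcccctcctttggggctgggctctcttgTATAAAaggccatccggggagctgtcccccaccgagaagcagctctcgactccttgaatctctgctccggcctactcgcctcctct
KRT18: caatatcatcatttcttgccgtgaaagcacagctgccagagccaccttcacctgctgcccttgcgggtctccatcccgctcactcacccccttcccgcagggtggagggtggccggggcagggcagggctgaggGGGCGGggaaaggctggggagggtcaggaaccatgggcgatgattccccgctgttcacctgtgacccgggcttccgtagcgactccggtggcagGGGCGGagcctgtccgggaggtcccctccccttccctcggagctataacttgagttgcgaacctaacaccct
The KRT8 window holds TATAAA 36 bases before the start and a STAT match, and no GGGCGG. The KRT18 window holds GGGCGG at 116 and at 22 bases before the start and neither of the others. Of 24946 promoter windows of this length, 11.5% held TATAAA, 7.0% TTCNNNGAA and 45.1% GGGCGG, and a match describes the letters only.

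The keratins are also made by collecting duct, whose 9 markers were summed. The median sum was 328 TPM in CF (318 to 585), 484 TPM in HET (386 to 857) and 591 TPM in WT (502 to 809), with all 9 detected in every library. Of the 9, 4 had a log2 fold change above 0 and 5 below 0 for CF against non-CF (median -0.17), 2 had an unadjusted p under 0.05 in edgeR and 0 passed adjustment. HET13, the highest pig for KRT8 and KRT18, had a sum of 386 TPM, beside a median of 457 TPM over all pigs. The 8 markers of loop of Henle and distal tubule, all detected in every library, had median sums of 630 TPM in CF (506 to 819), 728 TPM in HET (483 to 826) and 656 TPM in WT (603 to 813). Of these 8, 7 had a log2 fold change below 0 for CF against non-CF (median -0.18), 2 had an unadjusted p under 0.05 in edgeR and 0 passed adjustment. The part of either segment in the keratin values was not tested.

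SOX9, the transcription factor of regenerating epithelium, was the marker with an unadjusted p under 0.05 that was higher in CF. It ran from 2.85 over 6.28 to 12.8 CPM (lowest, median, highest) in CF, from 3.02 over 4.21 to 4.55 CPM in HET and from 3.75 over 5.60 to 6.79 CPM in WT. The highest pig was CF1, followed by CF7 at 9.38 CPM and CF6 at 8.07 CPM, while CF2 at 2.85 CPM was the lowest of all. The log2 fold change was 0.45 (SE 0.196, edgeR adjusted p 0.303), with 8 of 11 CF pigs above the non-CF median, and it fell to 0.30 without CF1. Among pigs 7 to 11 and 19 to 23, 5 CF pigs had 5.57 to 9.38 CPM and 5 non-CF pigs 3.02 to 4.59 CPM. There the log2 fold change was 0.78 (edgeR adjusted p 0.0299), in a fit that called 2.27% of genes. Among the other 13 pigs it was 0.23 (edgeR adjusted p 0.865), and the test of the difference between the sets did not pass (difference 0.54, edgeR adjusted p 0.670).

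The genes whose pattern over the 23 pigs was most like that of SOX9, by Pearson's r of log2 CPM, were COL9A3 (r = 0.88) and COL9A2 (r = 0.87), chains of a cartilage collagen, and ROBO1 (r = 0.87), a guidance receptor. CF1 was the highest pig for both collagens, with 30.96 CPM of COL9A3 and 36.0 CPM of COL9A2, against medians of 10.4 and 11.2 CPM over all pigs. These names describe likeness only, and no test was made of genes picked this way.

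HAVCR1 and LCN2, the classical injury markers, did not separate the genotypes. HAVCR1 spanned 1.97 to 2.86 CPM in CF with a median of 2.11, 1.60 to 2.48 CPM in HET with a median of 2.09, and 2.0 to 2.56 CPM in WT with a median of 2.35. Its log2 fold change was 0.04 (SE 0.097, edgeR adjusted p 0.900), and the 95% interval from -0.15 to 0.24 was narrow beside that of most other markers. LCN2 ran from 3.88 to 13.1 CPM in CF with a median of 6.96, from 4.26 to 8.11 CPM in HET with a median of 5.32, and from 5.62 to 10.2 CPM in WT with a median of 8.32. Its log2 fold change was 0.15 (SE 0.190, 95% interval -0.24 to 0.54, edgeR adjusted p 0.787), and 0.04 without CF3.

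The highest LCN2 level was that of CF3. Among the genes most like LCN2 over pigs were CLDN11 (r = 0.80), a tight junction protein, and RYR1 (r = 0.79), a calcium release channel. The 7 urothelium markers summed to 31.5 TPM in CF3, their highest sum, against a median of 16.4 TPM over all pigs. CF11 had the next highest sum, 27.4 TPM, but only 7.66 CPM of LCN2, beside a median of 6.96 CPM over all pigs. WT16 had the lowest sum, 8.97 TPM, with 9.03 CPM of LCN2. Only 4 of the 7 urothelium markers had a count in all libraries, and the part of these markers in LCN2 was not tested. For HAVCR1 the 3 nearest genes were uncharacterised (r = 0.79 to 0.84). PROM1, the progenitor-like marker, was as even as HAVCR1, at 20.6 to 36.2 CPM in CF, 23.4 to 29.7 CPM in HET and 26.7 to 37.2 CPM in WT. Its CF to non-CF difference was 0.05 on the log2 scale (SE 0.087, edgeR adjusted p 0.878).

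**Figure D2:**
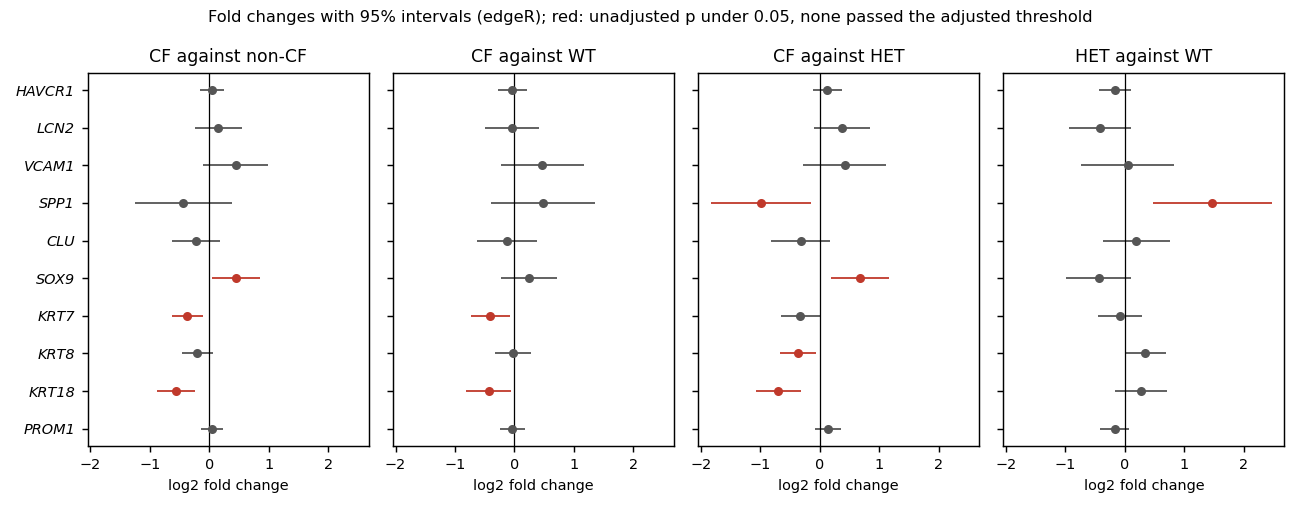
Log2 fold change of the 10 markers with 95% intervals in the 4 comparisons of genotype labels, from edgeR, with 11 CF, 6 HET and 6 WT pigs; comparisons in neighbouring panels share animals. HAVCR1 and PROM1 have the narrowest intervals and SPP1 the widest, and the points in red have an unadjusted p under 0.05, with no marker past the adjusted threshold.

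VCAM1, which lets leukocytes adhere and marks tubule cells after incomplete repair, was set apart by 1 pig. It ran from 16.6 over 31.5 to 116 CPM (lowest, median, highest) in CF, from 16.2 over 24.2 to 43.9 CPM in HET and from 19.6 over 23.4 to 43.9 CPM in WT. CF9 held the 116 CPM, 4.71-fold the median of all pigs and 3.63 robust SDs from it, and the next highest were HET21 and WT17 at 43.9 CPM. The log2 fold change of CF against non-CF was 0.44 (SE 0.268, edgeR adjusted p 0.496), and 0.08 without CF9.

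The VCAM1 gene lies at chr4:117496914-117511211, minus strand, and the window around its start (chr4:117511162-117511461, minus strand, Sscrofa11.1) is shown because VCAM1 was 1 of the 2 markers with a pig over 3.5 robust SDs from the median. Capitals mark a match to the NF-kB element and matches to TATAAA on either strand, of which those nearest the start overlap.
VCAM1: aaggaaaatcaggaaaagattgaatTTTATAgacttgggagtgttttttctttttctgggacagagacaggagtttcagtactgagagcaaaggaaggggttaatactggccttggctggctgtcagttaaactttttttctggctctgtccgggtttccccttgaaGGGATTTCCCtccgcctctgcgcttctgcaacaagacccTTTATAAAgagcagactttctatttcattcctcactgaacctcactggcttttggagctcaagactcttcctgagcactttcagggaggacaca
The NF-kB match lies 83 bases before the start, and TATAAA matches at 44 and 42 bases before it. Of the 24946 windows, 7.2% held a match to the NF-kB element. The genes most like VCAM1 over the 23 pigs were CCL2 (r = 0.88) and CCL4 (r = 0.87), chemokines that attract monocytes and other leukocytes, and MDM1 (r = 0.81), a centriole protein. CF9 was the highest pig for each, at 24.8 CPM of CCL2 against a median of 2.27 CPM, and at 5.10 CPM of CCL4 against 0.590 CPM. Of the 8 endothelial markers, SELE (E-selectin) and ICAM1, both adhesion molecules, were also over 3.5 robust SDs from the median in CF9, at 28.9 CPM against 1.0 CPM and at 47.6 CPM against 18.2 CPM. For ICAM1, CF1 came close to CF9, at 43.9 CPM, with 38.7 CPM of VCAM1. The endothelial sum in CF9 was 169 TPM, inside the 153 to 225 TPM of all pigs, and the leukocyte sum was 50.1 TPM against a median of 48.0 TPM. What these values contribute to VCAM1 was not tested.

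SPP1, the secreted osteopontin, had the widest range. In CF it ran from 343 over 679 to 2954 CPM (lowest, median, highest), in HET from 523 over 1306 to 3318 CPM and in WT from 327 over 535 to 984 CPM. HET21 (3318 CPM), HET20 (3031 CPM), CF5 (2954 CPM) and HET19 (1619 CPM) were the highest, then CF2 at 1116 CPM, and the other 18 pigs lay between 327 and 993 CPM. HET21 was 4.87-fold the median of all pigs and 3.61 robust SDs from it. The log2 fold change of CF against non-CF was -0.44 (SE 0.396, edgeR adjusted p 0.691), and it moved to -0.84 without CF5 and to -0.16 without HET21.

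Among pigs 7 to 11 and 19 to 23, SPP1 was 1619 to 3318 CPM in 3 HET, 343 to 875 CPM in 5 CF and 507 to 530 CPM in 2 WT pigs. Among pigs 1 to 6 and 12 to 18 it was 523 to 993 CPM in 3 HET, 459 to 2954 CPM in 6 CF and 327 to 984 CPM in 4 WT pigs. The log2 fold change of CF against non-CF was -1.64 (edgeR adjusted p 0.10) in the former and 0.66 (edgeR adjusted p 0.650) in the latter. The difference between the sets was -2.30 (SE 0.674), with an edgeR unadjusted p of 0.00231 and an adjusted p of 0.204, in a fit that called 0.0191% of genes. Pigs 1 to 6 and 12 to 18, with the positive value, include CF5 at 2954 CPM, and their medians were 680 CPM in CF and 681 CPM in non-CF.

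The genes most like SPP1 over the 23 pigs were GBP1 (r = 0.86), an interferon-inducible GTPase, SLC44A4 (r = 0.85), a choline-family transporter, and FGG (r = 0.85), the fibrinogen gamma chain. GBP1 was 349 CPM in CF5, 295 CPM in HET19, 295 CPM in HET20 and 303 CPM in HET21, and 13.7 to 48.5 CPM in the other 19 pigs. FGG was 147 CPM in CF5, 69.8 CPM in HET20, 35.4 CPM in HET21 and 22.7 CPM in HET19, against a median of 2.81 CPM over all pigs. The same 4 pigs were the highest for SPP1, GBP1 and FGG, while CF2, the next for SPP1, had 18.1 CPM of GBP1. The 10 leukocyte markers, 8 of them with a count in every library, summed to 108 TPM in CF5, 115 TPM in HET19, 122 TPM in HET20 and 146 TPM in HET21, against a median of 48.0 TPM, but CF6 also reached 114 TPM with 615 CPM of SPP1. The contribution of leukocytes to these SPP1 levels was not tested.

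**Figure D3:**
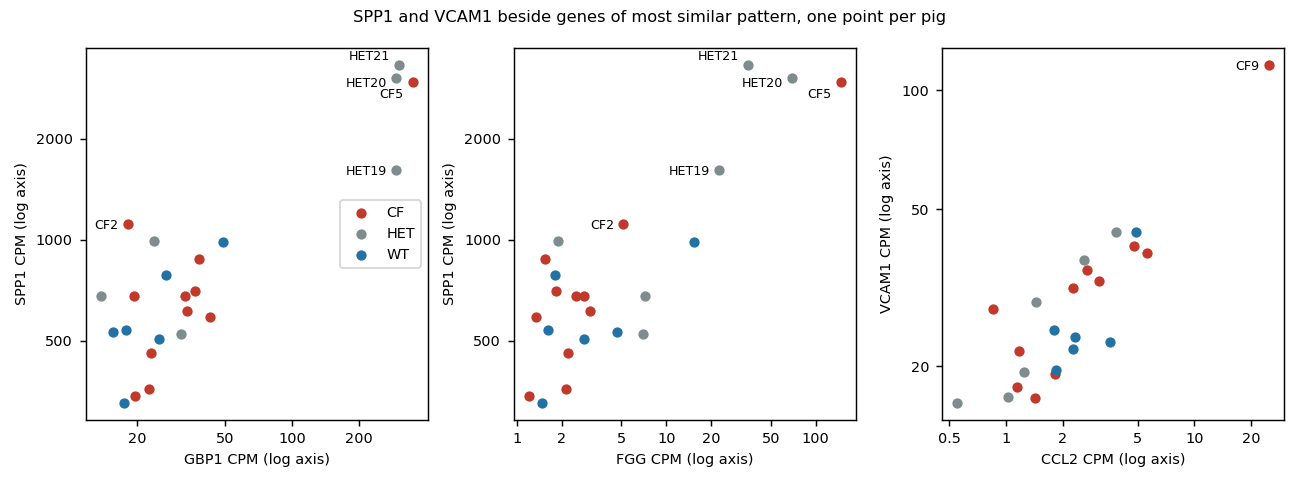
CPM of SPP1 against GBP1 and against FGG, and of VCAM1 against CCL2, on log axes, with 1 point per pig coloured by genotype label. For GBP1, CF5, HET19, HET20 and HET21 sit at 295 to 349 CPM, apart from the other 19 pigs at 13.7 to 48.5 CPM, and CF9 sits alone at 116 CPM of VCAM1 and 24.8 CPM of CCL2.

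CLU, the secreted chaperone, ran from 62.4 over 106.6 to 152 CPM (lowest, median, highest) in CF, from 76.1 over 107.7 to 275 CPM in HET and from 81.5 over 99.6 to 211 CPM in WT. HET13 and WT16 were the highest, the same 2 pigs as for KRT7. The log2 fold change was -0.23 (SE 0.198, edgeR adjusted p 0.682), and -0.06 without HET13. CLU shared 13.74% of its 31-base words with 1 uncharacterised gene, so its counts may be split between them. Among the genes most like CLU were HSPB8 (r = 0.78), a small heat shock protein, and PSAP (r = 0.76), a lysosomal protein precursor.

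Several markers are annotated with more than 1 transcript. HAVCR1 counts fell on 1 of its transcripts to 99.9% and SPP1 counts to 93.7%, while the leading CLU transcript took 56.2% (41.4% to 68.8% over pigs), the leading PROM1 transcript 49.05% (37.7% to 57.9%) and the leading LCN2 transcript 91.0%. The leading shares in CF, HET and WT were 57.9%, 56.0% and 53.1% for CLU, with SDs of 7.96, 7.18 and 7.87, and so differed by less than 1 SD. Estimates for such overlapping transcripts are less certain than their sum, which is why genes were compared.

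The 3 labels were then compared in pairs, in a fit of all 23 pigs, to see whether HET pigs stood with WT or with CF. These comparisons share animals and are given side by side. No marker passed the adjusted threshold in CF against WT (0.336% of 21434 genes called), in HET against WT (0.00467%) or in CF against HET (0%). At an unadjusted p under 0.05 there were 2 markers in CF against WT (14% of all genes), 1 in HET against WT (8%) and 4 in CF against HET (9.83%).

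In CF against WT the smallest p belonged to KRT7, whose log2 fold change was -0.41 (SE 0.158, edgeR adjusted p 0.237), KRT18, with -0.43 (SE 0.184, edgeR adjusted p 0.287), and VCAM1, with 0.47 (SE 0.338, edgeR adjusted p 0.585). Without WT16 the value was -0.235 for KRT7 and -0.35 for KRT18. No marker then had an unadjusted edgeR p under 0.05, beside 2555 of 21537 genes. Without CF9 the VCAM1 value was 0.11. In HET against WT the smallest p belonged to SPP1, with 1.47 (SE 0.485, edgeR adjusted p 0.538), KRT8, with 0.34 (SE 0.167, edgeR adjusted p 0.628), and SOX9, with -0.44 (SE 0.263, edgeR adjusted p 0.695). The SPP1 value rests on HET19, HET20 and HET21, since HET13, HET14 and HET15 at 523 to 993 CPM lie within the WT range but for 1 pig. In CF against HET they belonged to KRT18, with -0.69 (SE 0.182, edgeR adjusted p 0.224), SOX9, with 0.69 (SE 0.236, edgeR adjusted p 0.360), and KRT8, with -0.36 (SE 0.145, edgeR adjusted p 0.416). For KRT18 the HET pigs thus had the highest mean (31.4 ± 9.49 CPM, SD, n = 6), WT the next (26.2 ± 6.04 CPM, n = 6) and CF the lowest (19.4 ± 5.09 CPM, n = 11), and neighbouring groups overlapped.

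Single pigs were next compared with the rest, gene by gene. A pig over 3.5 robust SDs from the median was found for 2 of the 10 markers, VCAM1 in CF9 and SPP1 in HET21, against 15.7% of the 20921 genes tested, so such a pig was about as frequent for the markers as for genes at large. No pig was that far out for more than 1 marker. HET13 came closest to a general pattern: it was the highest pig for CLU, KRT8 and KRT18 (275, 212 and 43.3 CPM) and the next highest for KRT7 (96.3 CPM), yet had 4.26 CPM of LCN2, among the lowest, and 1.81 CPM of HAVCR1. CF1 and WT12, the pigs with the most genes far out, were within 3.5 robust SDs for all 10 markers.

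**Figure D4:**
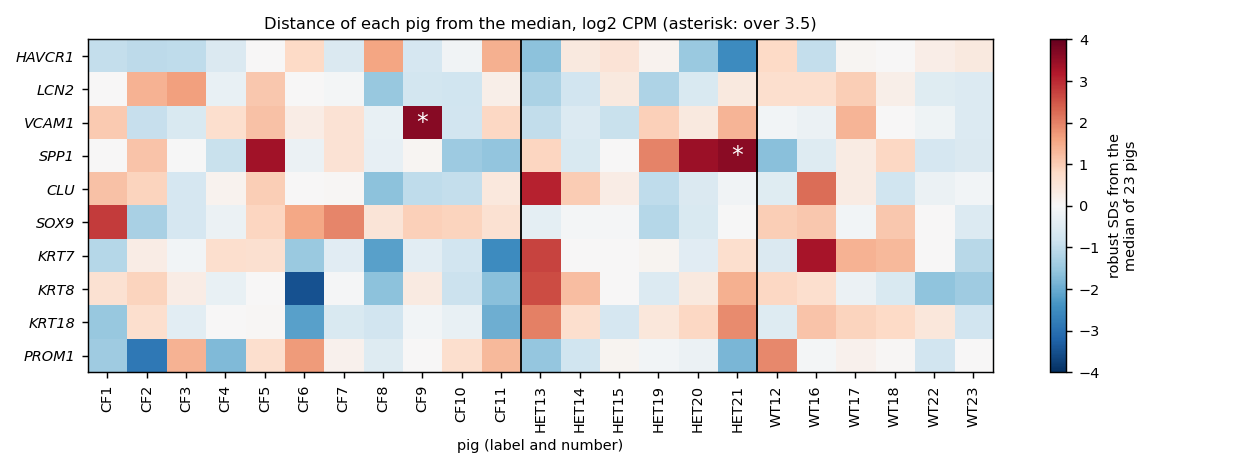
Distance of each of the 23 pigs from the median of all pigs, in robust SDs of log2 CPM, for the 10 markers; black lines separate CF, HET and WT, and an asterisk marks a distance over 3.5. The asterisks fall on VCAM1 in CF9 (3.63) and SPP1 in HET21 (3.61).

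Whether the markers rose and fell together over pigs was asked for all 45 pairs. With Pearson's r of log2 CPM, 10 pairs passed a permutation test (100000 resamples, two-sided) at an adjusted p under 0.05, of which 5 were positive and 5 negative. All 10 had an r of at least 0.53 in size, as did 7.22% of the 218833660 pairs of all genes tested, so pairs of this strength were frequent in these libraries and the count is given as a description. With Spearman's rho 4 pairs passed, KRT7 with KRT18 and HAVCR1 with KRT8, KRT18 and SPP1, and the other 6 did not. Among the keratins, KRT7 with KRT18 had r = 0.80 (Spearman's rho = 0.86, permutation p = 2e-05, adjusted p = 9e-04), and KRT8 with KRT18 had r = 0.68 (rho = 0.57, permutation p = 3.3e-04, adjusted p = 0.00495). KRT7 with KRT18 kept r = 0.78 without the 2 pigs farthest from the KRT7 median, r = 0.79 in CF and 0.70 in non-CF, and 0.88 in each number set. KRT7 with KRT8, genes that share sequence, had r = 0.59 (rho = 0.49, permutation p = 0.00324, adjusted p = 0.0276), and 0.49 without the 2 farthest pigs.

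HAVCR1 was negatively correlated with the keratins, with KRT7 by Pearson's r alone. Its r was -0.68 with KRT8 (rho = -0.66, permutation p = 3e-04, adjusted p = 0.00495), -0.63 with KRT18 (rho = -0.60, permutation p = 0.00107, adjusted p = 0.0120) and -0.55 with KRT7 (rho = -0.49, permutation p = 0.00646, adjusted p = 0.0363). It was also negative with SPP1 (r = -0.57, rho = -0.59, permutation p = 0.00438, adjusted p = 0.0282) and positive with PROM1 (r = 0.54, rho = 0.47, permutation p = 0.00811, adjusted p = 0.0406). Without HET13 and HET21, the pigs farthest from the HAVCR1 median, these became -0.58, -0.46, -0.49, -0.43 and 0.40. HAVCR1 varied by only 1.79-fold over pigs, at 74 to 149 counts, so these relations concern small changes in a low RNA.

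KRT18 with PROM1 had r = -0.53 (rho = -0.49, permutation p = 0.00908, adjusted p = 0.0409). CLU with KRT7 had r = 0.58 (rho = 0.35, permutation p = 0.00368, adjusted p = 0.0276), which rests on WT16 and HET13, as r was 0.17 without them. LCN2, VCAM1 and SOX9 were in none of the 10 pairs, and the classical pair HAVCR1 and LCN2 had r = -0.16 (rho = -0.13, permutation p = 0.467, adjusted p = 0.657).

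**Figure D5:**
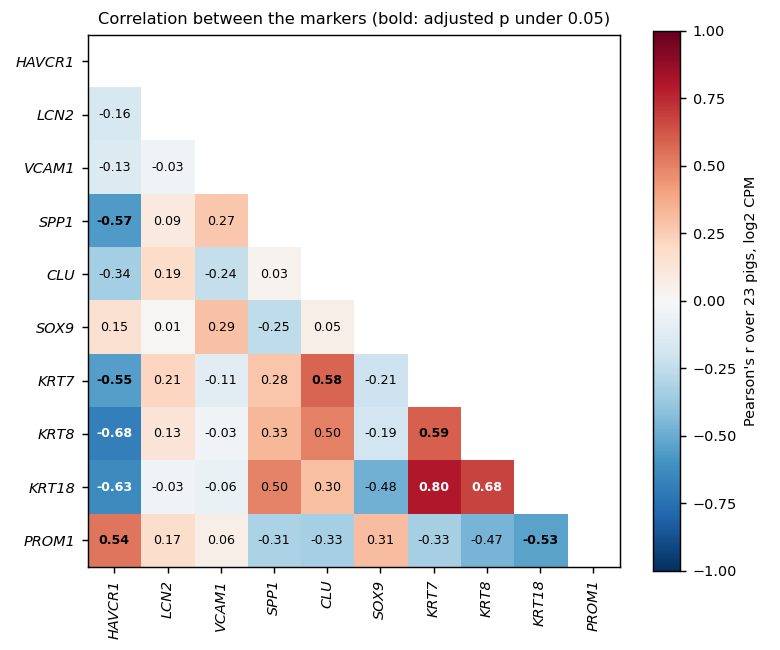
Pearson's r of log2 CPM over 23 pigs for each pair of the 10 markers, with values in bold where the adjusted permutation p was under 0.05. The keratins are positive with each other (0.59 to 0.80), HAVCR1 is negative with all 3 keratins (-0.68 to -0.55), and VCAM1 and LCN2 have no value in bold.

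Around these markers a wider list of 45 genes linked to kidney injury and repair was examined, of which 44 were in the annotation and 43 were tested. For CF against non-CF 11 had an unadjusted p under 0.05 in edgeR, beside 13.7% of all genes tested, with a median log2 fold change of 0.08 over the list. Of the genes reported here, SOX4 alone passed edgeR's adjusted threshold. SOX4, a transcription factor of the same family as SOX9, had 81.0, 116 and 202 CPM (lowest, median, highest) in CF, 64.7, 72.0 and 76.5 CPM in HET and 72.1, 81.3 and 105 CPM in WT, and all 11 CF pigs lay above the non-CF median. Its log2 fold change was 0.64 (SE 0.130, edgeR adjusted p 0.0316). The next smallest p among the genes reported were those of S100A10, a binding partner of annexin A2 (log2 fold change -0.29, SE 0.091, edgeR adjusted p 0.130), ANXA1, the membrane-binding annexin A1 (-0.37, SE 0.119, edgeR adjusted p 0.144), and ITGB8 (0.22, SE 0.095, edgeR adjusted p 0.287), an integrin chain. With 1 pig left out at a time SOX4 stayed under the threshold in 13 of 23 fits (edgeR adjusted p up to 0.0660), without a change of sign. In CF against WT, HET against WT and CF against HET none of the 43 passed.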

How the data were processed

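RNA-Seq of kidney cortex was available for 23 pigs, as 1 table per pig. The authors pseudoaligned the reads with kallisto to pig transcripts of Sscrofa11.1, and deposited for each transcript an estimated count, without normalization, and a TPM value. The deposited TPM values divide the estimated count by effective transcript length and scale each library to the same sum. Whether strand was used is not given in the sources used here.

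Estimated counts of 77689 transcripts were summed to 26687 gene symbols by the deposited map and rounded, since 64.0% of the estimates were not whole. TPM were summed likewise. Groups followed the labels. edgeR 4.0.16 on R 4.3.3 (TMM, filterByExpr, quasi-likelihood test, Benjamini-Hochberg adjustment over all genes, limit 0.05) tested CF against non-CF (20921 genes), and the 3 labels in 1 fit (21434 genes). All tests were two-sided. Log2 CPM used a prior count of 2. Each pig is 1 library, so p-values measure the spread between pigs. Libraries held 32901194 to 52952229 counts, and counting error is largest for HAVCR1 (from 74 counts) and SOX9 (from 123 counts). Permutations, exact Mann-Whitney tests and figures used Python 3.11.15, numpy 2.4.6, scipy 1.17.1, pandas 2.3.3 and matplotlib 3.10.9, and the Sscrofa11.1 genome with its RefSeq annotation was read with pysam 0.24.0. Promoter windows start at RefSeq gene ends, and of 37 marker transcripts 33 had the same length in the annotation as in the files. The fits were tested on simulated data with known changes.

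The markers, the gene lists and the number split (pigs 1 to 6 and 12 to 18 against the others) were chosen with earlier results of these data known. All 10 markers were named, with up to 3 of the smallest p for each pair of labels, the 3 nearest genes of each marker by r, and of the wider list the 5 smallest p and any adjusted p under 0.05. The wider list holds 45 symbols, of which CCN1 and CCN2 were found as CYR61 and CTGF. Of 12 lists of cell type markers and response genes, some are given beside the results they bear on. Genes and pigs named for other reasons (HET13, CF1, WT12) were picked after their values were seen.

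Alternatives were DESeq2 1.42.0, limma-voom with sample weights (limma 3.58.1), other normalizations and filters, the number set as a term or alone, the exact Mann-Whitney test, and each pig left out in turn. Leaving out CF1 and WT12 together, and the correlation alternatives, were chosen after seeing the data. Raw reads were not analysed here, and a few genes that these rules would name are not reported here.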

Additional observations from a re-analysis of the deposited data

Results flagged for a closer look

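In groups of 6 pigs, the gap of the highest or lowest pig to its nearest neighbour, as a share of the group's range of log2 CPM, exceeded Dixon's 95% critical value in 4 of 20 groups (10 markers in HET and in WT). Chance gives about 1 in 20, and over all 20921 genes tested 5.3% of such groups did. With 20 groups, which share pigs, no excess for the markers was tested. WT17 was the highest WT pig for VCAM1, at 43.9 CPM, with a gap of 0.715 of the range. WT16 was the highest WT pig for CLU, at 211 CPM, with a gap of 0.631. HET13 was the highest HET pig for KRT7, at 96.3 CPM, with a gap of 0.641. WT12 was the highest WT pig for PROM1, at 37.2 CPM, with a gap of 0.656. The HET20 and HET21 levels of SPP1 lay close together, so neither was set apart in this way. No marker passed the test of a difference in the CF effect between the number sets.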

How the results depend on the processing

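No marker was called for CF against WT, HET against WT or CF against HET under any alternative run. For CF against non-CF, 1 marker was called by DESeq2 (KRT18, log2 fold change -0.57, adjusted p 0.0240) and 1 among pigs 7 to 11 and 19 to 23 alone (SOX9, 0.78, edgeR adjusted p 0.0299), and 0 under the others, including CF1 and WT12 left out, the exact Mann-Whitney test and each pig left out in turn. The Mann-Whitney test gave an unadjusted p of 0.00863 for KRT18 and 0.0374 for KRT7 in its exact form. Signs turned only for markers with no call: among pigs 1 to 6 and 12 to 18 alone HAVCR1 had a log2 fold change of -0.072, SPP1 0.66 and PROM1 -0.038, among the other pigs LCN2 had -0.032, and the ratio of medians in the Mann-Whitney test was -0.14 for HAVCR1 and 0.085 for CLU on the log2 scale. The cause was not tested. With 1 pig left out at a time no fold change of a marker for CF against non-CF turned its sign, with ranges of -0.64 to -0.50 for KRT18, 0.30 to 0.53 for SOX9 and 0.08 to 0.53 for VCAM1. Markers with a pig over 3.5 robust SDs numbered 1 on log2(TPM + 0.1), where CLU in HET13 took the place of VCAM1 and SPP1. There 1970 of the 20921 genes tested had such a pig. With a prior count of 0.5 there were 2 markers, beside 3462 genes. At a limit of 5 there were 0 markers, beside 691 genes. With the median and spread taken within CF and within non-CF there were 5 markers, beside 5571 genes (26.6%). Of the 45 pairs, 4 passed with Spearman's rho (KRT7 with KRT18, and HAVCR1 with KRT8, KRT18 and SPP1), and 10 with a prior count of 0.5. Over all genes, the 73 calls for CF against non-CF (51 higher) became 488 with DESeq2, 101 with upper-quartile normalization (48 higher, 53 lower), 148 with the number set as a term, 47 with robust moderation and with the Mann-Whitney test, 473 and 0 in the number sets alone, and 17 to 203 with 1 pig left out. For CF against WT the 72 calls (32 higher, 40 lower) became 573 with DESeq2 (350 higher), 139 with upper-quartile normalization (37 higher, 102 lower), 173 with limma-voom, 172 with the number set as a term, 20 without CF1 and WT12, and 20 to 187 with 1 pig left out. DESeq2 called 32 for HET against WT and 56 for CF against HET, where edgeR called 1 and 0. Library depth limits HAVCR1 most, at 74 to 149 counts, and then SOX9, at 123 to 528 counts. Sex and litter are not in the labels and could not be entered in a fit.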
